A study of Mus musculus with 2 samples.

Results

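The TNF receptor superfamily genes of regulatory T cells (Tregs) were described in 2 libraries, 1 from spleen and 1 from lung. The genes were taken by symbol, namely Tnfrsf4, Tnfrsf9, Tnfrsf18, Tnfrsf1a, Tnfrsf1b, Tnfrsf8, Tnfrsf25, Tnfrsf10b, Cd27 and Fas, and all 10 were found among the 24346 symbols listed in each library. The cells were GFP+CD4+ T cells of Foxp3-DTR-GFP (FDG) mice, whose own Foxp3 locus drives the GFP reporter. All mice were 10 to 16 weeks old and received 50 μg of intratracheal bleomycin (BLM), an agent that injures the lung and leads to fibrosis, and cells were sorted on day 15. Each library came from the pooled cells of 3 mice, so there was 1 library per tissue, and neither a spread between mice nor a p-value could be had. Both libraries carried the same reporter and the same BLM treatment, and no untreated library was compared, so the labels of the libraries differed in tissue alone. Lung tissue was dissociated with enzymes and cleared of debris on Percoll, whereas the preparation of spleen is not given in the sources used here, and an effect of preparation cannot be told apart from an effect of tissue.

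Receptors of this family bind trimeric ligands through cysteine-rich repeats outside the cell. One class, here OX40 (Tnfrsf4), 4-1BB (Tnfrsf9), GITR (Tnfrsf18), TNFR2 (Tnfrsf1b), CD30 (Tnfrsf8) and CD27, has no death domain and recruits TRAF adaptors that activate NF-κB, and in T cells these receptors act as costimulators. The other class, here TNFR1 (Tnfrsf1a), DR3 (Tnfrsf25), the TRAIL receptor DR5 (Tnfrsf10b) and Fas, carries a death domain and can signal to NF-κB or to caspases. Tregs are known for high constitutive levels of OX40, GITR and TNFR2.

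The 10 genes are not spread evenly over the genome. In GENCODE M21 (GRCm38, the assembly of mm10, to which the reads were mapped), 6 of them lay on chromosome 4 within 10.8 Mb, between 145213463 and 156028895, namely Tnfrsf1b, Tnfrsf8, Tnfrsf9, Tnfrsf25, Tnfrsf4 and Tnfrsf18. Tnfrsf4 (156013843 to 156016612, plus strand) and Tnfrsf18 (156026164 to 156028895, plus strand) were separated by 9551 bases. Cd27 (125232622 to 125237010, minus strand) and Tnfrsf1a (125349362 to 125362484, plus strand) lay on chromosome 6, Tnfrsf10b on chromosome 14 and Fas on chromosome 19. Promoter windows from RefSeq (GRCm38.p6) were matched for 9 of the 10 genes. The bases upstream of the start of Tnfrsf18, Tnfrsf9, Cd27 and Fas are shown because these genes had the largest differences between the libraries in each direction among genes with upstream bases outside annotated exons. For Tnfrsf4 the window lay within an exon of Sdf4 or in the gene itself. Each run is on the strand of the gene, 5′ to 3′, ends at the RefSeq start or the nearest annotated exon, and has in capitals the matches to the motifs named below. The positions are chr4:156026072-156026163 for Tnfrsf18, chr4:150919905-150920154 for Tnfrsf9, chr6:125237137-125237277 on the minus strand for Cd27 and chr19:34290409-34290646 for Fas.
Tnfrsf18: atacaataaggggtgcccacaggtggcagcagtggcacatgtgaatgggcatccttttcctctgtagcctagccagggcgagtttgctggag
Tnfrsf9: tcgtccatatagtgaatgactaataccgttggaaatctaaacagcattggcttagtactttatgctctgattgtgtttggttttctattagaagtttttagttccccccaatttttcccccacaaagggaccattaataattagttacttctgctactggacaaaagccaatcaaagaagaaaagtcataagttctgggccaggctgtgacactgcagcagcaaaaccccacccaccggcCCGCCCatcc
Cd27: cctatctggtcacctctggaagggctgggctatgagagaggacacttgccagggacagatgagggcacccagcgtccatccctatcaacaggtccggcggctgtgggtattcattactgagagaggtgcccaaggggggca
Fas: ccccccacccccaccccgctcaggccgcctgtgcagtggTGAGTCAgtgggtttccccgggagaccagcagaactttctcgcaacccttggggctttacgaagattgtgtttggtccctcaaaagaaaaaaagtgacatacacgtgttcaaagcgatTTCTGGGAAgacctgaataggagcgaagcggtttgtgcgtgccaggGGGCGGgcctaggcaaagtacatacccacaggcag
In Tnfrsf9 the capitals mark 1 SP1 motif (GGGCGG, on the other strand), and in Fas they mark, in order, an AP-1 motif (TGANTCA), a STAT motif (TTCNNNGAA) and an SP1 motif. The runs of Tnfrsf18 and Cd27 held none of the motifs searched. Over the 250 bases before the start, exons of other transcripts included, and on both strands, the STAT motif was found in 4 of the 9 matched genes (Tnfrsf18, Tnfrsf1b, Tnfrsf1a and Fas) and in 7.18% of the windows of 27025 genes. The SP1 motif was in 4 of 9 (Tnfrsf9, Tnfrsf1b, Tnfrsf8 and Fas) against 32.9% of all windows. The AP-1 motif was in 2 of 9 (Tnfrsf8 and Fas) against 6.87%, the NF-κB consensus in Tnfrsf8 against 7.01%, and the Runx motif (TGTGGT) in Tnfrsf25 against 14.2%. The forkhead motif (GTAAACA) and the TATA box (TATAAA) were in 0 of 9, against 3.09% and 12.97% of all windows. One window per gene, the first listed, was counted. Second windows of Tnfrsf9 and Tnfrsf25, not in these counts, both held NF-κB and STAT matches, and that of Tnfrsf9 also an AP-1 match. The matches are a description of these letters only. The windows of the 9 genes had a median GC content of 56.0%, from 42.8% in Tnfrsf4 to 62.8% in Tnfrsf1b, and the median of all windows was 52.0%.

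The values are FPKM, the fragments of a gene per kilobase of exon, scaled to the number of mapped fragments, so levels can be compared between genes. Between libraries, a ratio also rests on the scaling, which is taken up below. To show the depth behind a value, reads were estimated from the FPKM and the length of the transcript. They summed to 9869217 in spleen and 12889973 in lung, and 95% intervals below come from these estimates, with exact Poisson limits for a level and exact binomial limits for a ratio. The intervals cover the counting error of reads only, and not the variation between mice. Copies made by PCR are counted as separate reads, so the intervals can be too narrow even for counting error. The labelled cell type was checked on T cell and Treg genes. In spleen, Cd3e had 513 FPKM, Cd4 195, Foxp3 18.7 and Il2ra 89.4, and in lung Cd3e had 369, Cd4 179, Foxp3 41.8 and Il2ra 59.1. The 9 T cell markers listed summed to 4474 FPKM in spleen and 4310 in lung, with 0 over 2-fold in either direction. The 10 Treg markers summed to 1149 FPKM in spleen and 1209 in lung, none at 0, with 2 over 2-fold higher (Foxp3 and Ctla4) and 2 over 2-fold lower (Lrrc32 and Gpr83). Genes of other cells were present too and differed between the libraries. All 12 macrophage markers were higher in lung and none was at 0 in either library, and their summed level was 550 FPKM in spleen and 26864 in lung, where Lyz2 alone had 24947. All 8 B cell markers were lower in lung, with a sum of 277 FPKM in spleen and 139 in lung and none at 0. Of 8 lung epithelium markers 6 were over 2-fold higher in lung and Epcam was lower, with a sum of 13.2 FPKM in spleen, where Sftpc, Sftpb and Krt8 were at 0, and 3131 in lung, where Scgb1a1 alone had 3021. Fibroblast markers summed to 0.290 FPKM in spleen, where 5 of 8 were at 0, and 163 in lung. Neutrophil markers summed to 448 FPKM in spleen and 1199.8 in lung, most of it S100a8 and S100a9, while Camp and Mpo were at 0 in lung. Dendritic cell markers summed to 320 and 401 FPKM, of which Ccr7 alone had 311 and 361. Of these markers, Zbtb46 and Itgax were over 2-fold higher in lung and Flt3 was over 2-fold lower. NK and CD8 T cell markers summed to 36.9 and 95.2 FPKM, with Cd8a and Cd8b1 over 2-fold higher in lung and Ncr1 and Eomes over 2-fold lower. Endothelial markers summed to 56.0 and 43.8 FPKM, of which Pecam1 had 54.8 and 31.7, while Vwf, Eng and Cldn5 were over 2-fold higher in lung. In bulk RNA, fewer cells of a type and less RNA per cell cannot be told apart.

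The OX40 and GITR genes dominated the family in both tissues and were about 2-fold higher in the lung library. Tnfrsf4 was at 486 FPKM in spleen (95% interval 472 to 501) and at 1004 in lung (984 to 1024), which is 2.06-fold higher in lung, with a counting interval of 1.99 to 2.14. It was the gene of rank 183 among all symbols in spleen and of rank 121 in lung. Tnfrsf18 was at 470 FPKM in spleen (456 to 485) and at 919 in lung (900 to 939), a 1.95-fold higher value (1.88 to 2.03). The intervals of the 2 genes overlapped in spleen and not in lung, and the level of Tnfrsf4 was 1.03 times that of Tnfrsf18 in spleen and 1.09 times in lung. The neighbouring genes thus kept nearly the same proportion while both were higher in lung. Sdf4, whose last exon covers the first 16 bases of the RefSeq gene of Tnfrsf4, had 158 FPKM in spleen and 241 in lung. An antisense gene, Gm16008, shares exon bases with Tnfrsf18, and the library kit does not mark strand, so reads of the 2 genes cannot be told apart.

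**Figure D1:**
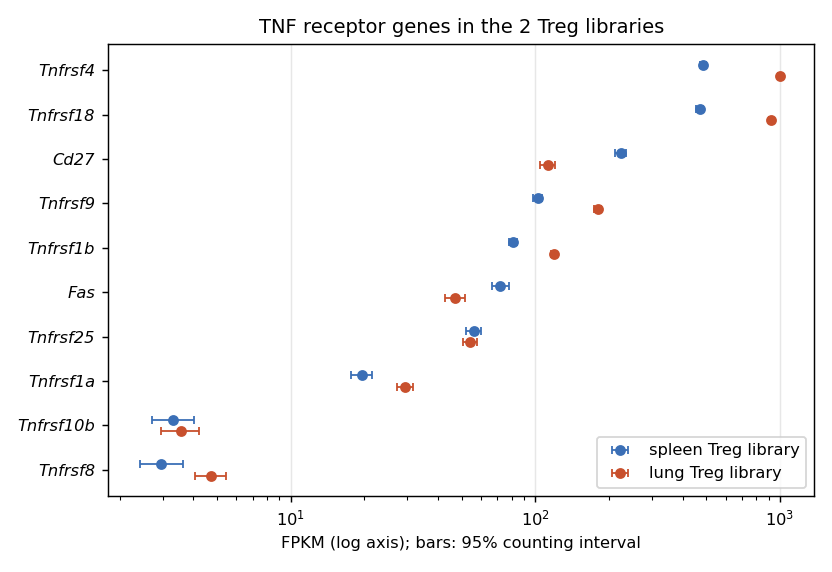
FPKM of the 10 TNF receptor genes (log axis) in the spleen library (blue) and the lung library (orange), with 95% counting intervals as bars. Tnfrsf4 and Tnfrsf18 are the highest in both libraries, and Cd27 and Fas are the genes clearly lower in lung.

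Among the other TRAF-binding receptors, 3 were higher in lung by less than 2-fold. Tnfrsf9 encodes 4-1BB, which T cells express after activation. It had 102 FPKM in spleen and 180 in lung, 1.75-fold higher (1.66 to 1.85). Tnfrsf1b encodes TNFR2, the receptor that responds best to membrane-bound TNF and supports Treg expansion. Its values were 81.1 FPKM in spleen and 119 in lung, 1.47-fold higher (1.40 to 1.53). Tnfrsf8, the gene of CD30, was scarce, with 2.96 FPKM in spleen and 4.72 in lung, about 98.5 and 178 reads. Its ratio of 1.59 therefore had a wide interval, from 1.23 to 2.05.

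CD27 went the other way. CD27 is carried by resting T cells and is lost from long-activated effector cells, and its gene was at 223 FPKM in spleen (212 to 235) and at 112 in lung (105 to 120). The splenic value was 1.99 times the lung value, or 0.503-fold in lung with an interval of 0.461 to 0.549. Cd27 was the third of the 10 genes in spleen and the fifth in lung, behind Tnfrsf9 and Tnfrsf1b, although its lung interval overlapped that of Tnfrsf1b (116 to 122). For every unit of Cd27 the spleen library had 2.18 units of Tnfrsf4 and the lung library had 8.93, a 4.10-fold difference that no scaling between libraries can change. B cells can also express CD27, and the B cell markers were lower in lung as given above, with a median log2 ratio of -1.11 over the 7 markers at 1 FPKM or more. Their part in the value of Cd27 was not tested. The small RNA gene Mir8113, which shares exon bases with Cd27, was listed at 54.6 FPKM in spleen and 0 in lung. How reads over the shared bases were divided between it and Cd27 is uncertain.

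Of the death domain receptors, Tnfrsf1a was higher in lung and Fas was lower, and the intervals of the other ratios included 1. Fas, the receptor of Fas ligand, was at 71.9 FPKM in spleen (66.2 to 77.9) and 46.9 in lung (42.7 to 51.5), so that spleen was 1.53-fold higher and the ratio of lung to spleen was 0.653 (0.576 to 0.740). Tnfrsf25 encodes DR3, the receptor of TL1A, whose stimulation expands Tregs. Its values were 56.0 FPKM in spleen and 54.0 in lung, a ratio of 0.964 with an interval of 0.876 to 1.06 that includes 1. Tnfrsf1a, the gene of TNFR1, had 19.6 FPKM in spleen and 29.3 in lung, 1.496-fold higher (1.32 to 1.70). Tnfrsf10b was near the bottom of the list, with 3.31 FPKM in spleen and 3.55 in lung, and its ratio of 1.07 had an interval of 0.817 to 1.41. In lung the intervals of Tnfrsf25 (50.5 to 57.6) and Fas overlapped, as did those of Tnfrsf8 and Tnfrsf10b in both libraries. Both TNF receptors were higher in lung in nearly the same proportion, since Tnfrsf1b was 4.14 times Tnfrsf1a in spleen and 4.06 times in lung. Myeloid cells also express both TNF receptors and Fas, and the part of the macrophage transcripts given above in these 3 values was not tested.

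**Figure D2:**
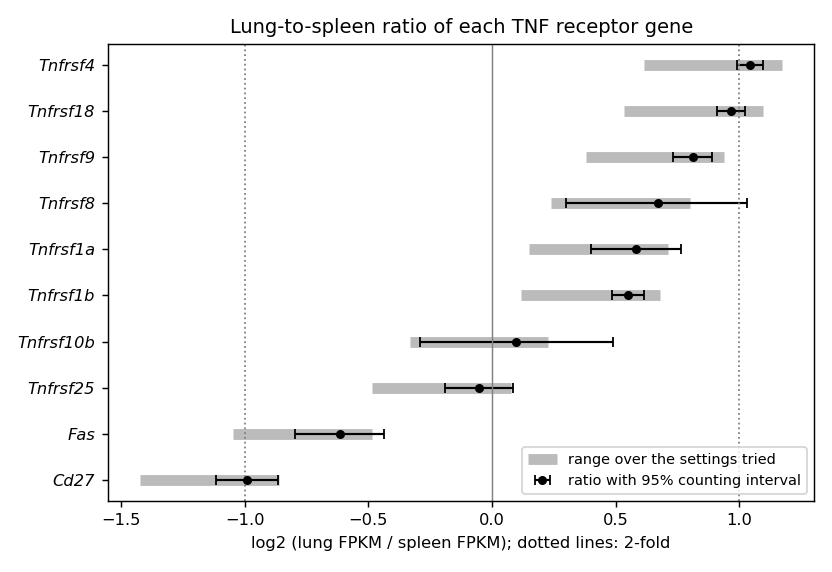
Log2 ratio of lung to spleen FPKM for each of the 10 genes (points), with the 95% counting interval (black bars) and the range over the settings tried (grey bars). Dotted lines mark 2-fold. Of the 10 genes, 6 lie above 0 and 2 below 0 over the whole grey range, whereas Tnfrsf10b and Tnfrsf25 cross 0.

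By count, 7 of the 10 genes were higher in lung by any amount, against 51.5% of the 12094 symbols with at least 1 FPKM in either library, and 3 were lower, against 48.5%. Above 2-fold there was 1 gene, Tnfrsf4, against 17.8% of all symbols, and 0 genes were more than 2-fold lower, against 15.5%. Tnfrsf18 at 1.95-fold and Cd27 at 1.99-fold lay just short of this limit. Above 1.5-fold, 4 genes were higher (Tnfrsf4, Tnfrsf18, Tnfrsf9 and Tnfrsf8), against 27.4%, and 2 were lower (Cd27 and Fas), against 25.4%. All 10 genes passed the minimum of 1 FPKM. Their median log2 ratio was 0.57, whereas that of all 12094 symbols was 0.03. The 6 TRAF-binding genes had a median of 0.74 with 5 higher in lung, and the 4 death domain genes had a median of 0.02 with 2 higher. On chromosome 4, 5 of 6 genes were higher in lung, against 2 of the 4 on other chromosomes. The differences were thus moderate for single genes, and 17.1% of the 12094 symbols had a larger ratio than Tnfrsf4 and 15.6% a smaller one than Cd27.

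**Figure D3:**
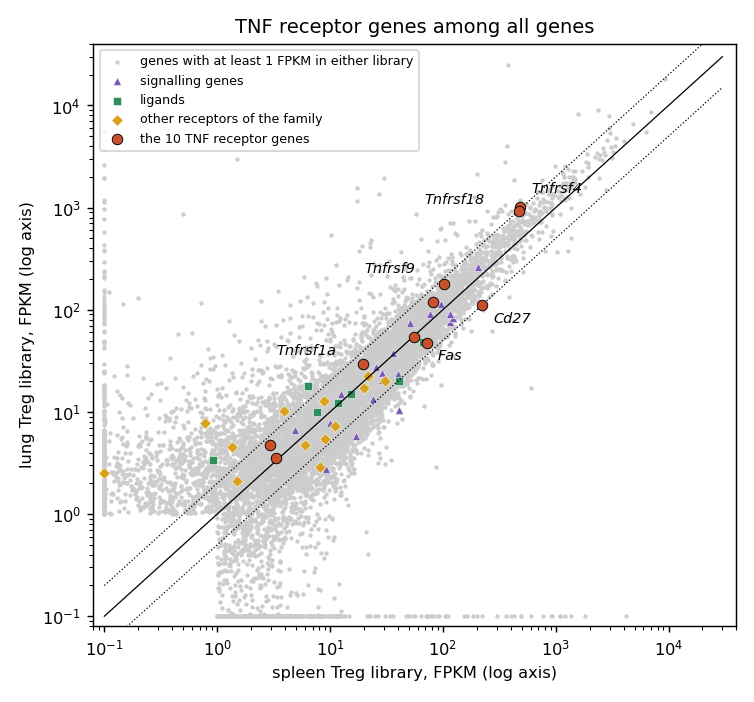
FPKM in the spleen library against the lung library for the symbols with at least 1 FPKM in either (grey), both axes logarithmic, with values under 0.1 drawn at 0.1 and dotted lines at 2-fold. The 10 genes (orange circles) follow the diagonal, with Tnfrsf4 on the upper and Cd27 on the lower dotted line.

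The size of these ratios depended on how the libraries were scaled to each other. The FPKM summed to 599633 in spleen and 808853 in lung. After both sums were made equal (the TPM scale), every log2 ratio was lower by 0.43, 0 of the 10 genes were over 2-fold higher and 2 (Cd27 and Fas) were over 2-fold lower. The same step turned the split of all symbols from 17.8% higher and 15.5% lower into 13.3% higher and 27.5% lower. Relative to the T cell list, whose median ratio was set to 1, both Tnfrsf4 and Tnfrsf18 were over 2-fold higher. Under every scaling, floor and pseudocount tried, Tnfrsf4, Tnfrsf18, Tnfrsf9, Tnfrsf8, Tnfrsf1a and Tnfrsf1b were higher in lung and Cd27 and Fas were lower. Tnfrsf10b turned lower with TPM, and Tnfrsf25 turned higher relative to the T cell list. Values taken within a library replace the scaling by the choice of a reference gene. Cd3e was itself 0.719-fold in lung, whereas Cd3g, of the same receptor complex, had 902 FPKM in spleen and 1103 in lung. Per unit of Cd3e, Tnfrsf4 was at 0.947 in spleen and 2.72 in lung, Tnfrsf18 at 0.916 and 2.49, Tnfrsf9 at 0.200 and 0.487, and Cd27 at 0.435 and 0.304. Per unit of Foxp3, which was itself 2.23-fold higher in lung (2.04 to 2.44), Tnfrsf4 was at 25.9 in spleen and 24.0 in lung, Tnfrsf18 at 25.1 and 22.0, and Cd27 at 11.9 and 2.69. On the Foxp3 scale Tnfrsf9 was at 5.47 in spleen and 4.30 in lung, and Tnfrsf1b at 4.33 and 2.84. Tnfrsf1a was at 1.04 and 0.700, and Tnfrsf8 at 0.158 and 0.113. All 10 genes were lower in lung per unit of Foxp3. So OX40 and GITR transcripts were more abundant in lung relative to Cd3e and slightly lower relative to Foxp3. Cd27 was lower on both scales.

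The make-up of the receptor transcripts shifted with the tissue. The summed level of the 10 genes was 1517 FPKM in spleen and 2472 in lung. Tnfrsf4 and Tnfrsf18 together held 63.0% of this sum in spleen and 77.8% in lung. Cd27 held 14.7% in spleen and 4.55% in lung, and Fas 4.74% and 1.90%. Tnfrsf9 had a similar share in both, with 6.75% and 7.27%, as had Tnfrsf1b with 5.34% and 4.81%. Tnfrsf8 and Tnfrsf10b held less than any other gene, at most 0.218% in either library.

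**Figure D4:**
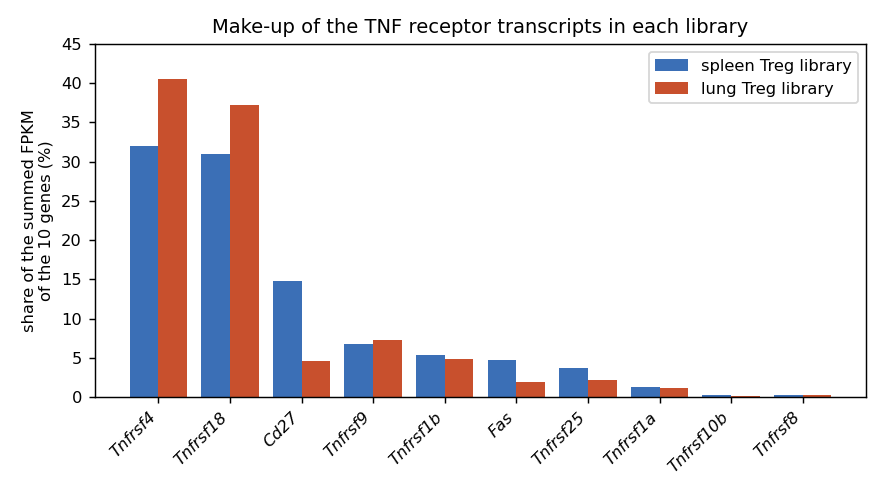
Share of the summed FPKM of the 10 genes held by each gene (%) in the spleen library (blue bars) and the lung library (orange bars). Tnfrsf4 and Tnfrsf18 hold 63.0% in spleen and 77.8% in lung, and Cd27 14.7% and 4.55%.

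Some ligands of these receptors are made by antigen-presenting cells, and activated T cells make some of them too. Macrophage markers were higher and B cell markers lower in lung, as given above. The part of such cells in the ligand values, those of Tnfsf9 and Cd70 included, was not tested. Of the 10 ligand genes, 7 reached 1 FPKM in either library. Tnfsf9, the 4-1BB ligand, was higher in lung together with its receptor, at 6.42 FPKM in spleen and 17.96 in lung, 2.80-fold (2.14 to 3.70). Cd70, the ligand of CD27, was higher in lung while its receptor was lower, at 0.913 FPKM in spleen and 3.35 in lung, but it rested on about 6 and 25 reads and its ratio of 3.67 had an interval of 1.47 to 10.9. Tnfsf8, the CD30 ligand, was lower in lung, at 41.0 FPKM in spleen and 19.98 in lung, so that spleen was 2.05-fold higher. Of the genes of the TNFR ligands, Tnf was near level, at 11.9 FPKM in spleen and 12.2 in lung. Lta, which encodes lymphotoxin-α, was lower in lung, at 66.8 and 48.7 FPKM, 0.728-fold (0.657 to 0.808). Fasl was at 15.4 and 15.1 FPKM and Tnfsf10, the gene of TRAIL, at 7.72 and 9.96. The ligands of the 2 most abundant receptors were at or near 0 in both libraries. Tnfsf4, the OX40 ligand, was at 0.344 FPKM in spleen, about 5.83 reads, and listed at 0 in lung, which allows up to 0.156 FPKM (3 reads). Tnfsf18, the GITR ligand, was at 0.156 FPKM in spleen, about 3 reads, and at 0 in lung, which allows up to 0.137. Tnfsf15, which encodes TL1A, was at 0.137 and 0.151 FPKM, about 4.47 and 5.59 reads. Over the 7 ligand genes at 1 FPKM or more the median log2 ratio was 0.04.

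Of 18 other receptors of the family, 13 reached 1 FPKM, of which 4 were over 2-fold higher in lung, against 17.8% of all symbols, and 1 was over 2-fold lower, against 15.5%, with a median log2 ratio of 0.06. The most abundant of them in spleen was Tnfrsf26, with 30.9 FPKM in spleen and 20.04 in lung. Tnfrsf13b, the gene of the BAFF and APRIL receptor TACI, was the most abundant in lung, at 21.5 and 22.4 FPKM, Relt at 20.04 and 17.0, Tnfrsf14, the gene of HVEM, at 8.87 and 12.8, and Tnfrsf13c, the BAFF receptor gene of B cells, at 11.0 and 7.21. Tnfrsf21, the gene of the death receptor DR6, had 3.92 FPKM in spleen and 10.2 in lung, 2.60-fold higher (2.14 to 3.17). The other 3 genes over 2-fold higher and the 1 lower are named because of their values. Tnfrsf11a, which encodes RANK, a receptor of osteoclast precursors and dendritic cells, had 0.781 FPKM in spleen and 7.84 in lung, 10.03-fold higher (7.22 to 14.3). Tnfrsf19 was at 0.0871 FPKM in spleen, about 3.43 reads, and 2.51 in lung, about 112 reads. Tnfrsf23 had 1.37 FPKM in spleen and 4.59 in lung, but it has close copies beside it, Tnfrsf22 and Tnfrsf26, and how reads were divided among them is uncertain. Tnfrsf12a, the gene of the TWEAK receptor Fn14, had 8.13 FPKM in spleen and 2.87 in lung. Tnfrsf11b, Ngfr, Edar and Eda2r were listed at 0 in both libraries. Transcripts of other cells differed between the libraries as given above, and their part in the values of these 18 receptors was not tested.

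Of 20 genes that carry the signal of these receptors inside the cell, all reached 1 FPKM. In lung 0 were over 2-fold higher, against 17.8% of all symbols, and 3 were over 2-fold lower, a share near the 15.5% of all symbols. By any amount 8 were higher and 12 lower, against 51.5% and 48.5%, and the median log2 ratio was -0.31, against 0.03. Traf5, an adaptor that binds OX40 and CD27, had 41.1 FPKM in spleen and 10.4 in lung, so that spleen was 3.96-fold higher. Traf6, the adaptor of RANK and CD40, was at 17.0 and 5.76 FPKM, 2.96-fold higher in spleen, and Map3k14, the gene of the kinase NIK of the non-canonical NF-κB pathway, at 9.29 and 2.79, 3.34-fold higher in spleen. Traf2, the adaptor most of these receptors share, had 40.0 FPKM in spleen and 23.7 in lung. Rnf31, the gene of the catalytic subunit of the linear ubiquitin ligase, was at 24.1 and 13.5, whereas Sharpin, the gene of another subunit of that ligase, was at 51.2 and 74.2, the highest ratio of the list at 1.45 (1.33 to 1.58). A pair of known NF-κB targets were abundant and slightly higher in lung, Traf1 at 96.2 FPKM in spleen and 115 in lung and Tnfaip3, which encodes the feedback inhibitor A20, at 204 and 264, 1.29-fold (1.26 to 1.33). With TPM, Traf1 and Tnfaip3 were lower in lung.

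**Figure D5:**
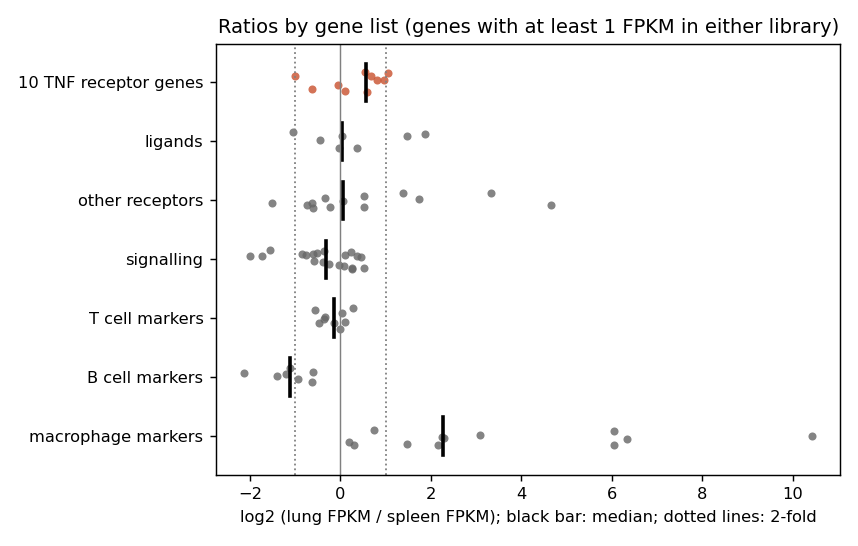
Log2 ratio of lung to spleen FPKM for the genes of each list with at least 1 FPKM in either library (points, spread vertically for sight only), with the median as a black bar. The 10 TNF receptor genes have a median of 0.57, the signalling genes of -0.31, the B cell markers of -1.11 and the macrophage markers of 2.27.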

How the data were processed

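GFP+CD4+ T cells were measured by bulk RNA-seq in 2 libraries, grouped by the tissue in their labels. The SMART-Seq HT kit, meant for small amounts of RNA, gave full-length cDNA, of which 75 bases were sequenced from one end. Mapping by the authors was to mm10, with TopHat2 2.1.1, Bowtie2 2.2.8 and SAMtools 0.1.18 and the deposited values are FPKM from Cuffdiff 2.2.1. The annotation, the options of Cuffdiff and any scaling between libraries are not given in the sources used here.

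From the FPKM, values under 0.1 were set to 0.1 and lung was divided by spleen. Over 2-fold counts as higher or lower, among symbols with at least 1 FPKM in either library. With 1 library per tissue no test was run. Reads were estimated from GENCODE M21 transcript lengths (median of the transcripts tied to RefSeq), with fragments of mean 200, SD 80 and a minimum of 73. One read at an effective length of 1 kb was worth 0.0964 FPKM in spleen and 0.0849 in lung, read off where FPKM times effective length piled up over genes. Genes with several transcripts have approximate read numbers. A count of 0 was taken to allow up to 3 reads, a one-sided limit, whereas the 95% intervals are two-sided.

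The 10 genes, the lists and the motifs were chosen with earlier results of these data known. All 10 genes and their ligands are named. Other receptors are named from 10 FPKM in either library, and of the signalling genes Traf1, Traf2, Tnfaip3 and the 3 highest and 3 lowest ratios from 10 FPKM. Exceptions were named after their values were seen, as were the choice of upstream bases to print, which the rule gave to Tnfrsf4 and Cd27 and which was widened, and Sdf4, Gm16008 and Mir8113 as overlapping genes. With 2 libraries no genes of like pattern were sought. The steps were tested on simulated data. Settings tried were other floors, pseudocounts, scalings, filters and folds. Intervals came from scipy 1.17.1, tables from pandas 2.3.3 and numpy 2.4.6, and plots from matplotlib 3.10.9, all under Python 3.11.15.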

Additional observations from a re-analysis of the deposited data

How the results depend on the processing

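The count of 1 receptor gene over 2-fold higher in lung was the same with a floor of 0.01 or 1 FPKM, with a pseudocount of 0.1 or 1 FPKM, after scaling by median ratio or by upper quartile, and when 1 FPKM in both libraries or no minimum was asked. It was 0 with TPM, 2 when scaled to the T cell list, 4 at 1.5-fold and 0 at 4-fold. The count of 0 genes lower became 2 with TPM (Cd27 and Fas), 1 after scaling by median ratio, 1 by upper quartile (Cd27 in both), and 2 at 1.5-fold. A scaling multiplies every ratio by the same factor. A factor that lowers the ratios thus moves genes away from the upper limit and towards the lower limit, and a factor that raises them does the reverse. The median log2 ratio of the 10 genes was 0.13 with TPM and 0.70 when scaled to the T cell list. Of the 10 genes, 8 kept their direction at every setting. Over the settings at 2-fold, the other receptors over 2-fold higher numbered 2 to 4 and those lower 1 to 5, ligands higher 1 to 2 and lower 0 to 2, and signalling genes higher 0 and lower 3 to 7. Of all symbols at the same settings, 10.9% to 20.1% were higher and 9.98% to 27.5% lower. The largest counts of lower receptors and signalling genes, 5 and 7, came with TPM, where 27.5% of all symbols were lower. No library could be left out. No paired analysis was possible because each tissue had 1 library. Depth limits Tnfrsf8 and Tnfrsf10b among the receptors and Cd70, Tnfsf4, Tnfsf18 and Tnfsf15 among the ligands, which rested on about 178 reads or fewer in either library.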
